A study of Homo sapiens with 6 samples.

Results

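The MYC and immediate-early transcripts described here are those of 7 genes, MYC, MYCN, FOS, JUN, JUNB, JUND and EGR1, in lists of RNA sites bound by HuR, the ELAVL1 protein. HuR sites were assigned to a gene when they lay on its strand and overlapped its hg19 span by at least 1 nt. This gave 18, 19 and 21 sites in HuR replicates 1, 2 and 3, of 186157, 405048 and 550681 sites in all, and 22 of the 658853 sites in the list made from the replicates combined. A further list, limited by the authors at p 0.05 per its name, held 18 intervals in these genes of 373845. The genes were chosen by name and not by their values, though earlier results of these data were known.

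The material was HEK293, an established human embryonic kidney cell line, with no treatment or genetic change given in the labels. Lysates digested with micrococcal nuclease were pooled and divided over immunoprecipitations with a mouse antibody to HuR (3 samples) or with antibodies from normal mouse serum (3 samples), and RNA fragments were sequenced. Only the HuR samples entered here, and values for the control samples were not analysed here. Each site carries the authors' LOD score, all above 0, whose scale and base no source used here states and whose levels differ between lists. Scores are therefore compared as percentiles within a list, where 100 is the top of that list. If 1 pooled lysate served all samples, the SDs below cover technical spread only. Read depth, RNA abundance and markers of the cell line cannot be read from lists of sites, so weak binding, few transcripts and few reads cannot be told apart where a site is missing or low. The replicate 1 list stood apart by its length, and counts of recurrent sites, covered shares and shared bases are also given with lists of equal length. Equal length leaves replicate 1 whole, down to a LOD of 0.00307, and cuts replicates 2 and 3 at LODs of 4.74 and 4.41. Weak sites therefore stay in replicate 1 that would be cut from the other replicates. Percentiles are given for whole lists only. The same percentile is a different rank in each list, so differences in percentile between replicates, and their SDs, also carry list length.

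HuR binds U-rich and AU-rich stretches of RNA, many of them in the 3′ untranslated regions (UTRs) of mRNAs, and is best known for lengthening the life of mRNAs that would otherwise decay quickly. Immediate-early genes are switched on within minutes of a growth signal without new protein synthesis. Their mRNAs are short-lived, and the AU-rich element of FOS is a classic example of a sequence that marks an mRNA for decay. MYC and MYCN encode related transcription factors that drive growth. FOS and the JUN proteins pair to form the transcription factor AP-1, and EGR1 encodes a zinc-finger transcription factor.

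The 3′ UTRs of these genes differ in AU-rich and U-rich motifs, which are shown because HuR is known for binding such RNA. Sequence at the hg19 sites themselves was not used here. In the longest protein-coding transcript of each gene in GENCODE release 29, which is on GRCh38 and was not placed on hg19 positions, the pentamer ATTTA, searched on the transcript strand with overlapping matches counted, occurred 5 times in the 3′ UTR of FOS, 4 times in that of MYC and 3 times in that of JUN. It occurred 2 times each in MYCN and JUNB and 1 time each in JUND and EGR1. All 7 genes held it in the last 300 nt, where 48.7% of 15347 protein-coding genes with a 3′ UTR at least that long also held it. The longer TTATTTATT, which contains ATTTA, was found 1 time, in FOS, and 2.09% of the 15347 genes held it in the last 300 nt. The U-rich TTTTT, also counted with overlaps in the 3′ UTR, gave another order. It occurred 25 times in EGR1, 18 in MYC, 14 in JUND, 9 each in JUNB and MYCN, 6 in FOS and 5 in JUN. Its share over other genes was not computed. The 30-nt stretch of each 3′ UTR with the most ATTTA, and then the most T, is given below in the 5′ to 3′ direction from the transcript sequences of GENCODE, with ATTTA in capitals and no stretch for MYC.
MYCN: tttaatttcttcaaaatgtatatATTTAgt
FOS: ttttattgtgtttttaATTTATTTAttaag
JUN: ttgcttatgaatATTTAtaacagcattctt
JUNB: tgtgtttgttctttttattgaatctATTTA
JUND: ttcgattctgccctATTTAtgtttctactc
EGR1: tatttttttaactgaaaatgtaaATTTAta
Of these 6 stretches, that of FOS holds 2 overlapping pentamers and the others hold 1 each. MYC sequence was not examined for such a stretch here, so it is outside this comparison. The 3′ UTRs were between 476 nt long in MYC and 1287 nt in JUN, with 500 nt in JUNB, 681 nt in JUND, 806 nt in FOS, 910 nt in MYCN and 1234 nt in EGR1. A motif match is a description of letters and not a bound site.

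HuR sites were found in all 7 genes in every replicate, and most of their bases lay near the 3′ end. The last 33.3% of each span, on the 3′ side, held 92.6% ± 0.585 (SD, n = 3) of all bases inside HuR sites of the 7 genes, with 92.1%, 93.3% and 92.5% in replicates 1, 2 and 3. In MYCN, FOS, JUNB, JUND and EGR1 the value was 100% in each replicate. MYC had 80.0% ± 0.396 and JUN 88.0% ± 0.725 (SD, n = 3). Of the 22 combined sites, 18 had their midpoint in the last 33.3%, and the others were 3 in MYC and 1 in JUN. Spans include introns where a gene has them, and exon and UTR borders on hg19 were not used here. The same values for other genes were not computed, so neither pattern is shown to be particular to these 7 genes.

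**Figure D1:**
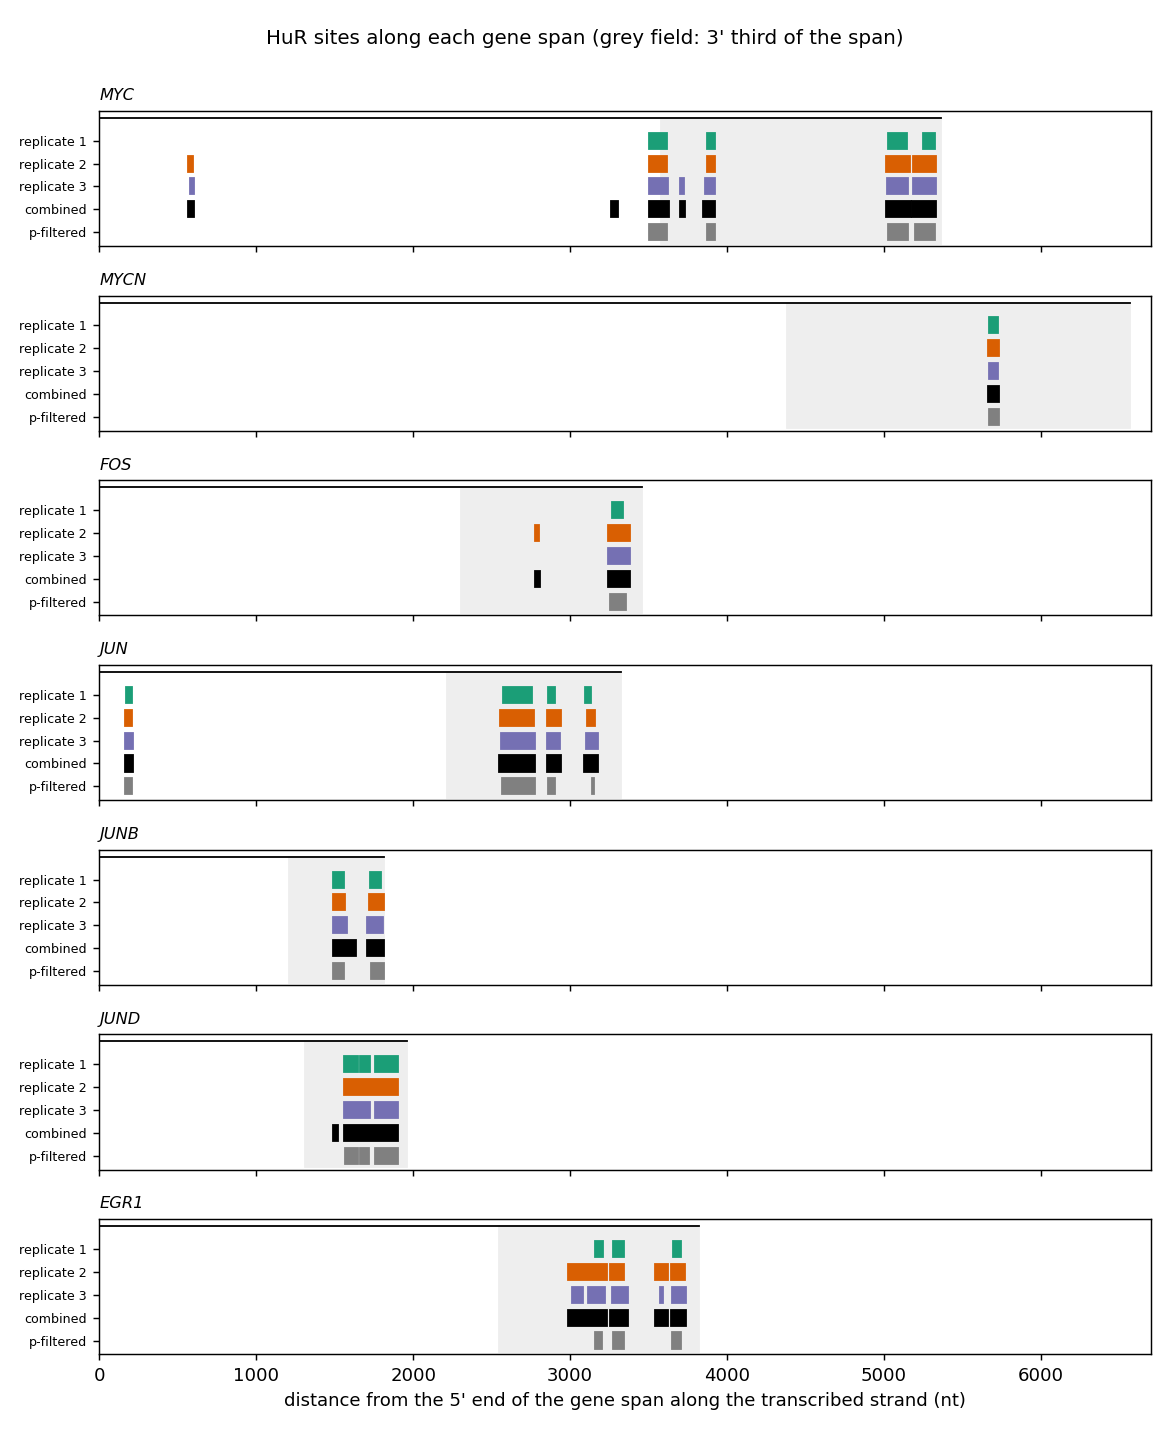
HuR sites drawn as boxes along the 7 gene spans, with distance from the 5′ end of each span in nt on the horizontal axis and 1 row per list (3 replicates, combined, p-filtered). The grey field is the last 33.3% of the span, in which 18 of the 22 combined sites have their midpoint.

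Sites in these genes recurred between replicates. Of the 22 combined sites, 16 (72.7%) overlapped a site in all 3 replicate lists, against 22.9% of all combined sites. All 18 sites of replicate 1 overlapped a site in both other replicates, where 89.1% of its whole list did. The count was 16 of 19 for replicate 2, against 37.8%, and 17 of 21 for replicate 3, against 28.4%. Bases called in all 3 replicates came to 1390 nt, or 60.0% of the 2315 nt called in any, and replicate 1 with 1405 nt set the ceiling. With at least 50% of each interval shared, 11 of 22 were found in all 3, against 13.4% of all, and 12 had a p-filtered interval, against 41.7% of all. These are counts without a test, and sites of 1 gene share its transcripts and are not independent. Recurrent member sites were also wide and high in score, with a median of 120 nt and a median combined percentile of 91.6, beside 85 nt and 86.7 for all recurrent combined sites. With each replicate list limited to its 186157 highest-scoring sites, 10 of 22 combined sites were found in all 3, against 13.1% of all, and bases called in all 3 came to 875 nt.

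The 6 combined sites not found in all 3 replicates were 3 in MYC and 1 each in FOS, JUND and EGR1. Their median combined percentile was 7.09 and their median width 37.5 nt, beside 40.3 and 45 nt for all combined sites not found in all 3. They include 2 sites found in no replicate list, in MYC and JUND, or 9.09% of the 22, where the whole combined list had 11%. The authors' p filter kept 16 of 22 combined sites, against 52.3% of all, and these were the same 16 sites that were found in all 3 replicates. The combined and p-filtered lists pool the replicates, so being kept and being found in all 3 are not independent. How often the 2 coincide over all combined sites was not computed. The filter kept 60.4% of the 2515 nt that the combined sites covered. The share of bases kept ranged from 32.1% in EGR1 to 92.9% in MYCN.

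**Figure D2:**
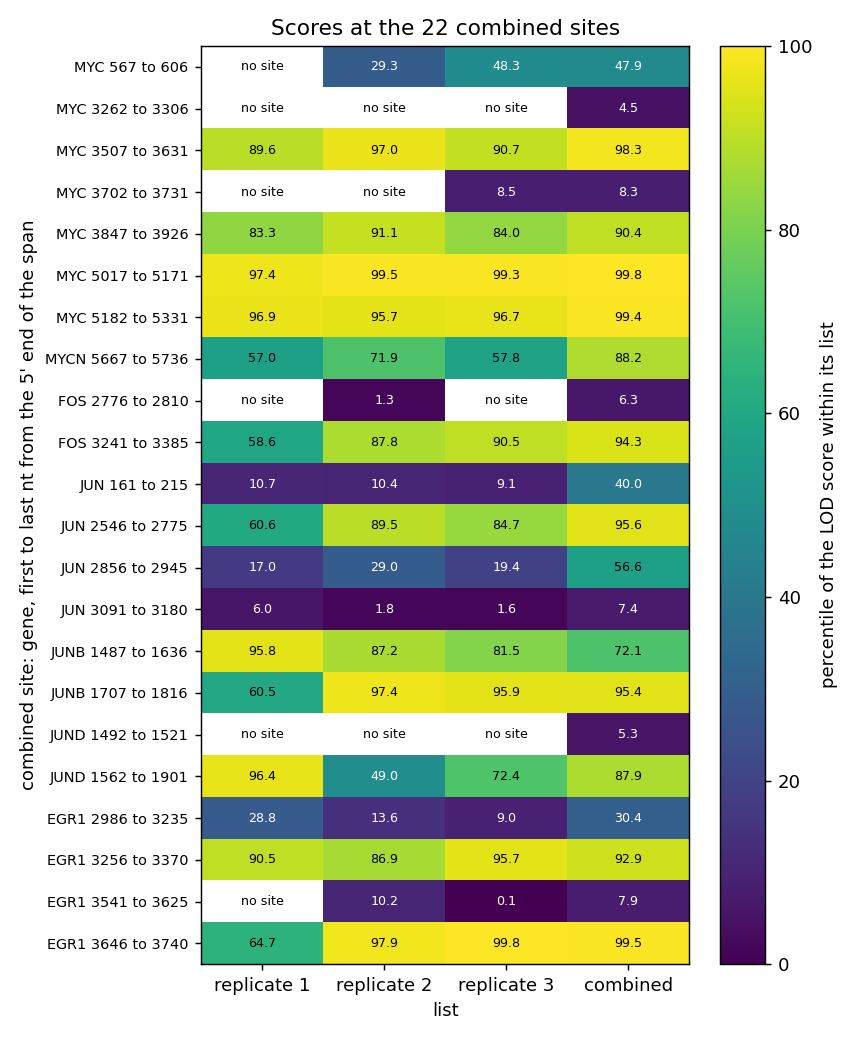
Percentile of the LOD score within its list for each of the 22 combined sites (rows, named by gene and by first and last nt from the 5′ end of the span) in the 3 replicates and the combined list (columns), with the highest overlapping score taken and "no site" where a list has none. The 16 sites with a value in all 3 replicates and the 6 without can be told apart row by row.

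MYC, on chromosome 8 from 128748315 to 128753680 on the plus strand, carried the highest-scoring site of the 7 genes in the combined list and in replicates 1 and 2. It had 4, 5 and 6 sites in replicates 1, 2 and 3. The strongest site, at chr8:128753331-128753485, ended 195 nt before the 3′ end of the span and had a combined LOD of 20.7, in the top 0.165% of that list. Its LOD was 9.83, 9.29 and 7.60 in replicates 1, 2 and 3, at percentiles 97.4, 99.5 and 99.3, a mean of 98.7 ± 1.16 (SD, n = 3). The replicates thus placed this site within a narrow band at the top of their lists. A neighbour that began 11 nt after its end, at chr8:128753496-128753645, had a combined LOD of 18.6 and percentiles of 96.9, 95.7 and 96.7. These adjoining sites ran from 5017 to 5331 nt into the span of 5366 nt.

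A second group of MYC sites lay over 1 kb upstream of the first. The site at chr8:128751821-128751945 had a combined LOD of 16.5 and percentiles of 89.6, 97.0 and 90.7 in replicates 1, 2 and 3. The site at chr8:128752161-128752240 had 12.2 and percentiles of 83.3, 91.1 and 84.0. Among these 4 recurrent MYC sites the one ending 195 nt before the 3′ end was highest and the one at chr8:128752161-128752240 lowest in every replicate. A site near the 5′ end, from 567 to 606 nt into the span, was found in replicates 2 and 3 at percentiles 29.3 and 48.3, and the p filter removed it. The remaining MYC sites, at 3262 to 3306 nt and 3702 to 3731 nt, had combined percentiles of 4.49 and 8.28, the first in no replicate and the second in replicate 3 alone.

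MYCN, the MYC paralogue best known from neuroblastoma, lies on chromosome 2 from 16080560 to 16087129 on the plus strand. It had 1 site in each list. In the combined list no other of the 7 genes had so few, while FOS also had 1 in replicates 1 and 3 and in the p-filtered list, and JUND had 1 in replicate 2. The combined site at chr2:16086226-16086295 was 70 nt wide, lay 834 nt before the 3′ end and had a LOD of 11.6, at percentile 88.2. Replicate LODs were 5.25, 5.55 and 4.10, at percentiles 57.0, 71.9 and 57.8, a mean of 62.2 ± 8.40 (SD, n = 3). Replicates 1 and 3 called the same 55 nt, and the 70 nt of replicate 2 contained them. All 3 replicates thus placed the site in the same narrow stretch, in the upper part but not at the top of their lists. It was not among the 186157 highest-scoring sites of replicate 3. The range of percentiles for the strongest site did not overlap between MYC, at 97.4 to 99.5, and MYCN, at 57.0 to 71.9.

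FOS, the partner of the JUN proteins in AP-1, lies on chromosome 14 from 75745481 to 75748937 on the plus strand. A single recurrent site, at chr14:75748721-75748865, ended 72 nt before the 3′ end of the span and had a combined LOD of 13.6, at percentile 94.3. Its LOD was 5.34, 6.65 and 5.80 in replicates 1, 2 and 3, at percentiles 58.6, 87.8 and 90.5, a mean of 79.0 ± 17.7 (SD, n = 3). Replicate 1 stood below replicates 2 and 3 in percentile and also called a narrower site. Replicates 2 and 3 called the same 145 nt, and replicate 1 called 70 nt inside it. The weak FOS site at 2776 to 2810 nt into the span was found in replicate 2 alone, at percentile 1.25.

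JUN, the founding JUN family member, lies on chromosome 1 from 59246463 to 59249785 on the minus strand and had 4 sites in every list, with all 4 combined sites found in all 3 replicates and kept by the p filter. The widest, at chr1:59247011-59247240, was 230 nt in the combined list with a LOD of 14.3, at percentile 95.6. Its replicate LODs were 5.44, 6.82 and 5.34, at percentiles 60.6, 89.5 and 84.7, a mean of 78.3 ± 15.5 (SD, n = 3). The other JUN sites were lower in score in every replicate. At 2856 to 2945 nt into the span the percentiles were 17.0, 29.0 and 19.4 in replicates 1, 2 and 3, with a combined percentile of 56.6. At 3091 to 3180 nt they were 6.00, 1.79 and 1.57, with a combined percentile of 7.39. A site near the 5′ end, at 161 to 215 nt, had percentiles of 10.7, 10.4 and 9.10, a mean of 10.1 ± 0.850 (SD, n = 3), and a combined percentile of 40.0. The 4 JUN sites kept the same order of scores in all 3 replicates, with the widest first and the one nearest the 3′ end last. With lists of equal length JUN had 4, 1 and 1 sites in replicates 1, 2 and 3, and the widest alone was in all 3.

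HuR sites also lay just beyond the end of the JUN span. At chr1:59246141-59246210, which begins 253 nt past the 3′ end, a site with a combined LOD of 12.3 was found in all 3 replicates, at percentiles 16.7, 92.9 and 87.1. At chr1:59246376-59246430, 33 nt past the end, a site was found in replicates 2 and 3, at percentiles 24.0 and 44.7. These sites are not counted among the 22. The GENCODE model of JUN is 3540 nt long, against 3323 nt for the hg19 span used here. At which end it is longer was not examined. The site found in all 3 replicates begins 3576 nt from the 5′ end of the span, which is more than either length. Whether the sites belong to longer JUN transcripts was not tested.

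JUNB, an AP-1 subunit, lies on chromosome 19 from 12902310 to 12904125 on the plus strand and had 2 sites in every list, all found in all 3 replicates. The site at chr19:12904016-12904125 reached the last base of the span and had a combined LOD of 14.2, at percentile 95.4. Its LOD was 5.43, 8.17 and 6.48 in replicates 1, 2 and 3, at percentiles 60.5, 97.4 and 95.9. The site at chr19:12903796-12903945 had a combined LOD of 8.75, with replicate LODs of 9.25, 6.59 and 5.15, at percentiles 95.8, 87.2 and 81.5. Replicate 1 thus ranked the upstream site above the one at the 3′ end, and replicates 2 and 3 ranked them the other way. The strongest JUNB site of each replicate stood at percentile 96.4 ± 0.898 (SD, n = 3), though it was not the same site in each.

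JUND, the JUN family member that is expressed widely in resting cells, lies on chromosome 19 from 18390504 to 18392466 on the minus strand. It had 2 combined sites. The larger, at chr19:18390566-18390905, was an unbroken stretch of 340 nt ending 62 nt before the 3′ end of the span, with a combined LOD of 11.5, at percentile 87.9, and replicate 2 called the same 340 nt. The smaller, at chr19:18390946-18390975, had a combined LOD of 1.53, at percentile 5.33, and was found in no replicate list. Replicate 1 divided the larger stretch into 3 sites, with LODs of 9.46, 2.10 and 4.26 from the 5′ side, at percentiles 96.4, 9.19 and 32.1. Replicate 3 divided it into 2, at percentiles 72.4 and 62.2, and replicate 2 scored the whole at percentile 49.0. The p-filtered list divided it into 3 as replicate 1 did, with its highest score, 20.9, on the 5′ side. The strongest JUND site had a mean percentile of 72.6 ± 23.7 (SD, n = 3), the widest spread of the 7 genes. A score over a site of unequal width is not the same measurement in each list. Among the 186157 highest-scoring sites of each list, JUND kept 3 sites in replicate 1, 0 in replicate 2 and 1 in replicate 3.

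EGR1 lies on chromosome 5 from 137801181 to 137805004 on the plus strand. HuR sites numbered 3, 4 and 5 in replicates 1, 2 and 3. The strongest combined site, at chr5:137804826-137804920, ended 84 nt before the 3′ end with a LOD of 18.9, in the top 0.467% of the list. Its LOD was 5.67, 8.31 and 8.31 in replicates 1, 2 and 3, at percentiles 64.7, 97.9 and 99.8, so that replicate 3 placed it higher than any other site of the 7 genes and replicate 1 did not. The site at chr5:137804436-137804550 had a combined LOD of 13.0 and percentiles of 90.5, 86.9 and 95.7, a mean of 91.0 ± 4.46 (SD, n = 3). It was the highest EGR1 site in replicate 1, as the upstream site was in JUNB. Another recurrent site, 250 nt wide in the combined list from 2986 to 3235 nt into the span, was low, at percentiles 28.8, 13.6 and 8.99, and replicate 1 called 50 nt of it. The weak site at 3541 to 3625 nt was found in replicates 2 and 3, at percentiles 10.2 and 0.0626.

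**Figure D3:**
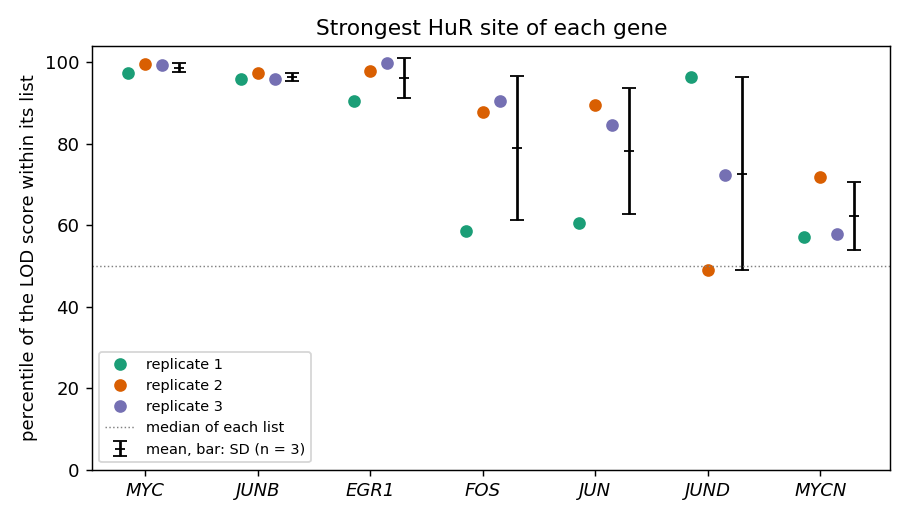
Percentile within its list of the highest-scoring HuR site of each gene, with 1 point per replicate, the mean and SD (n = 3) beside them, and a dotted line at the median of a list. MYC, JUNB and EGR1 have all 3 points above 90, and JUND runs from 49.0 to 96.4.

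The strongest sites ranked high in most but not all lists. The median over the 7 genes stood at percentile 90.5, 89.5 and 90.5 in replicates 1, 2 and 3, where the median site of a list stands at 50. It is the highest of several sites for most genes, so it lies above the median in part by construction. In the combined list 9 of the 22 sites were in the top 10% of scores, and the share over all sites is 10% by definition. By mean percentile over replicates the order was MYC, JUNB, EGR1, FOS, JUN, JUND and MYCN. Every pair of neighbours in this order overlapped in range over the replicates, but MYC and JUNB only at 97.4, and EGR1 and FOS only at 90.5. The range of MYC lay above those of FOS, JUN, JUND and MYCN.

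The share of the span covered by HuR sites placed the genes in another order. JUND was highest with 15.3%, 17.3% and 15.8% in replicates 1 to 3, or 16.1% ± 1.06 (SD, n = 3). JUN followed with 11.4% ± 1.68, EGR1 with 9.37% ± 4.49, JUNB with 9.09% ± 1.53 and MYC with 8.48% ± 1.62 (SD, n = 3 each). FOS had 2.02%, 5.06% and 4.19%, a mean of 3.76% ± 1.56, and MYCN was lowest with 0.837%, 1.07% and 0.837%, a mean of 0.913% ± 0.132 (SD, n = 3). JUND was above JUN in 3 of 3 replicates, MYC above FOS in 3 of 3 and FOS above MYCN in 3 of 3, and in each of these pairs the ranges over replicates did not overlap. Between JUN, EGR1, JUNB and MYC the ranges of neighbours in the order overlapped. No p-value accompanies these pairs, because 3 replicates allow an exact two-sided sign-flip p no smaller than 0.25. Spans with introns, those of MYC, MYCN, FOS and EGR1, are longer than their mRNAs, so a share of the span is not a share of the mRNA. Whether introns bear on the order was not tested. JUN, JUNB and JUND have 1 exon each in the GENCODE transcripts used. Shares of mRNA length were not computed, so the order holds for spans only. With lists of equal length the JUND values were 15.3%, 0% and 8.41%, and JUNB had the highest mean, 9.09%. The means of the others were then 7.95% in MYC, 7.90% in JUND, 7.47% in JUN, 4.75% in EGR1, 3.47% in FOS and 0.634% in MYCN.

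**Figure D4:**
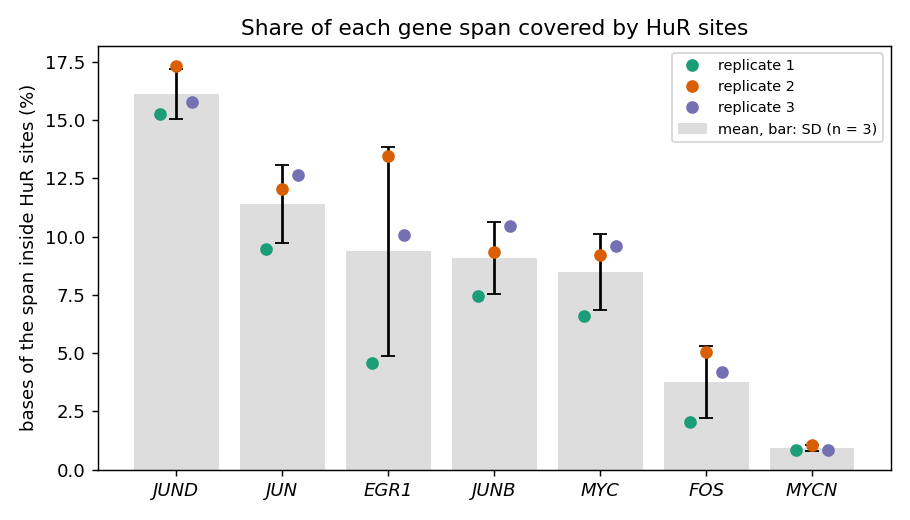
Share of each gene span inside HuR sites in percent, with bars for the mean, error bars for the SD (n = 3) and 1 point per replicate, ordered by the mean. JUND lies above all other genes in each replicate and MYCN below them.

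The share of bases called in all 3 replicates differed between genes and depended on list length. With whole lists, of the bases called in any replicate, 88.2% were called in all 3 in JUND, 78.6% in MYCN, 68.2% in JUN, 67.5% in JUNB, 65.1% in MYC, 40.0% in FOS and 32.1% in EGR1. With lists of equal length the order was another: JUND and MYCN had 0%, since no base was called in all 3 (0 nt in each, against 300 nt and 55 nt with whole lists). MYC then had 74.0%, JUNB 67.5%, JUN 55.1%, FOS 48.3% and EGR1 48.1%. Without replicate 1 and with whole lists, bases called in both other replicates came to 145 nt in FOS, against 70 nt with it, and to 355 nt in EGR1, against 175 nt.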

How the data were processed

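HuR sites from 3 immunoprecipitations of HEK293 lysate were analysed. Titles in the labels gave groups and replicate numbers. The submitters' processing notes name the tools cutadapt 1.0 and TopHat2 2.0.8 and the build hg19 (GRCh37). In the deposited files each interval has a LOD score from the authors. For the calling and scoring of intervals, no source used here gives the steps. Intervals lie on a grid of 5 nt. Depth per library is unknown, so no counting interval is given.

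Gene spans were those given with the choice of genes, which was made, like the lists and measures, with earlier results of these data known. Sites were matched on the same strand by at least 1 nt. Percentiles are mid-ranks within a list. Python 3.11.15, numpy 2.4.6 and pandas 2.3.3 were used, and the code was tested on simulated intervals. All 7 genes are named, each with its highest combined site, and the other sites were named after their values were seen. Transcript sequences are from GENCODE release 29. Other genes of the pathway were not analysed here, because no hg19 annotation was used here, and for that reason no gene was sought for a like pattern. Alternatives were score thresholds, overlap, list length, span ends and leaving out each replicate. Coordinates are 1-based.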

Additional observations from a re-analysis of the deposited data

How the results depend on the processing

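For the 9 results over all 7 genes, 41 alternative values were computed, and 36 of them changed by less than the margin allowed, a ratio of 1.5 for counts and otherwise 1 SD between replicates. Beyond that margin lay 5. None of these measures can be negative, so a change of sign was not possible. With lists of equal length the share of the spans covered was 5.09% (7.08% as reported), bases called in all 3 replicates were 875 nt (1390 nt) and combined sites found in all 3 were 10 (16). With spans extended by 1000 nt the covered share was 4.84%, since most of the added sequence holds no site. The last 25% of the spans held 86.8% of covered bases, a narrower region by construction. Of the single genes MYC alone changed, with 56.3% in the last 25% against 80.0% in the last 33.3%. Without each replicate in turn, sites ranged from 18.5 to 20.0 (19.3), the covered share from 6.51% to 7.95%, the 3′ share from 92.3% to 92.9%, bases called in all remaining replicates from 1390 to 1875 nt, combined sites found in all remaining replicates from 16 to 18, the median percentile of the strongest site from 90.0 to 90.5, opposite-strand sites from 1.00 to 1.50 and cover of the flanks from 0.0982% to 0.172%. The last 3 of these were added after seeing the data. Bases and combined sites shared by all remaining replicates can only stay the same or rise when a replicate is left out. With at least 50% of each interval shared, 11 of 22 combined sites were found in all 3 replicates, against 13.4% of all, and 12 were kept by the p filter, against 41.7% of all. Of 175 alternative values for single genes, 16 lay beyond the margin. Where a site is missing, depth is unknown. No paired analysis was possible because the negative control samples, which share replicate numbers with the HuR samples, were not analysed here.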

Other observations

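Same-strand sequence around the 7 genes held few HuR sites. Within 10000 nt on either side, 0.133% ± 0.0745 (SD, n = 3) of bases lay inside a site, against 7.08% ± 1.53 (SD, n = 3) inside the spans. FOS, JUNB and EGR1 had no site there in any list. Beyond MYC a site at chr8:128754716-128754770 was found in replicates 2 and 3, at percentiles 35.7 and 79.4. Upstream of MYCN 2 sites, the nearer 3865 nt before the span, were found in replicate 3 alone. Past JUND a site at chr19:18388346-18388385 was found in all 3 replicates, with a combined LOD of 9.44.

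The opposite strand of the spans held 1, 1 and 2 sites in replicates 1, 2 and 3. The site opposite JUN, at chr1:59247671-59247720 on the plus strand, was found in all 3 replicates, at percentiles 48.7, 17.7 and 30.2, and was kept by the p filter. The site opposite EGR1, at chr5:137804266-137804295 on the minus strand, was found in replicate 3 alone, at percentile 71.5, and lies within the combined EGR1 site from 2986 to 3235 nt into the span. In replicate 3 it fills the gap between the EGR1 sites at 3011 to 3085 nt and 3116 to 3220 nt, from 3086 to 3115 nt. Their source was not tested.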
